A study of Mus musculus with 6 samples.

Results

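AP-1, EGR and NR4A early genes encode the transcription factors that a cell switches on first after a stimulus. The 10 genes described here are the AP-1 subunits Fos, Fosb, Jun, Junb and Jund, the stress-responsive AP-1 partner Atf3, the zinc finger factors Egr1 and Egr2, the nuclear receptor Nr4a1 and the small nuclear protein gene Ier2. They were chosen by symbol with earlier results of these data known, so the counts below describe this set and test nothing. Every probe set that the array's annotation assigns to one of them was used. This gave 13 probe sets of 45037 on the array, for 10 of 18193 named genes. All 10 genes had at least 1 probe set among the 27022 whose mean signal passed the filter on dim probe sets, and 12 of the 13 probe sets passed it.

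The samples were megakaryocyte progenitors (MkP), the blood precursors that lead to megakaryocytes and platelets, of wild-type C57BL/6 mice. The bone marrow group had 3 samples from adult mice of 12 to 18 weeks, and the fetal liver group had 3 samples taken at E13.5. Neither group carried a transgene or received a treatment, per the labels. Both groups were sorted alike, for cells with KIT, CD150 and CD41 on the surface and without lineage markers or Sca-1, so the groups differ in organ and in age together. Per the labels the samples are biological replicates, of an unstated number of animals or embryos each, so the p-values measure the spread between these samples.

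The early genes need no new protein for their induction, because the factors that switch them on are already in the cell and are activated by kinases. Growth factor and stress signals reach serum response factor and its ETS partners, which bind the CArG box of the serum response element, and CREB, which binds the cAMP response element (CRE). FOS and JUN proteins then pair through leucine zippers to form AP-1, while EGR and NR4A proteins bind sites of their own. Their messages are short-lived, and the genes are known to respond to the isolation of cells from tissue as well as to signals within it. In megakaryocytes, thrombopoietin and integrin signalling feed into the same kinase cascade.

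The sequences before the start sites are shown as a description, and their part in the differences between the tissues was not tested. RefSeq start sites in GRCm38.p6 were used for 8 of the 10 genes, with 12 starts in all, of which Egr2 had 5. Egr1 and Ier2 were not searched. Capitals mark matches, on either strand, to the short CRE motif TGACG, to the CArG box and to the EGR motif GCGNGGGCG. Each is written 5′ to 3′ on the strand of its gene. The stretches lie at chr12:85473741-85473848 (plus strand) for Fos, chr7:19310067-19310125 (minus) for Fosb, chr8:84978830-84978874 (minus) for Junb, chr10:67537789-67537818 (plus) for Egr2, chr15:101266596-101266830 (plus) for Nr4a1 and chr1:191183334-191183360 (minus) for Atf3.
Fos: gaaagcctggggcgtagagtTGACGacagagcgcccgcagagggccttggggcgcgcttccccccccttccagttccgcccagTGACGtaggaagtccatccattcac
Fosb: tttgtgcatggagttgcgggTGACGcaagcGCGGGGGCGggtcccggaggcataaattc
Junb: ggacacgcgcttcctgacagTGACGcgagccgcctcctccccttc
Egr2: tcctcagtCCATATATGGgcagcgaCGTCA
Nr4a1: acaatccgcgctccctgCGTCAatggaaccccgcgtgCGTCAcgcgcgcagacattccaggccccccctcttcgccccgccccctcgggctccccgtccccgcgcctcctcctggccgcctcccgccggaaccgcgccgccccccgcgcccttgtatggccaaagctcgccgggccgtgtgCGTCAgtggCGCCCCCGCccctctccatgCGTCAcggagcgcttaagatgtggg
Atf3: ggaagctattaatagcattaCGTCAgc

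The short CRE motif occurred in the 250 bases before the start of 6 of the 8 genes, and before 8 of their 12 starts. Of all 32851 starts in the RefSeq table, 17.8% held it in the same window. Nr4a1 had 4 copies, Fos had 2, and Egr2 had 2 before each of 3 starts, of which the stretch above shows 1. These 3 Egr2 starts lie close together and share the same 2 copies, so the 8 of 12 starts are not 8 separate promoters. Within these 250 bases the CArG box was found before Egr2 alone of the 8 genes (4 of its 5 starts), against 1.47% of all starts. Of these 4 starts, 3 share the same box. Bases further upstream were not searched, so a CArG box there would be missed. The EGR motif stood before Fosb and Nr4a1, against 4.70% of all starts. In Nr4a1 it lay between a pair of short CRE motifs and overlapped neither. No start of the 8 genes held the full CRE TGACGTCA (1.55% of all starts), the AP-1 motif TGANTCA (6.75%) or the NR4A motif AAAGGTCA (1.34%) in this window. Jun and Jund had none of the 6 motifs there.

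**Figure D1:**
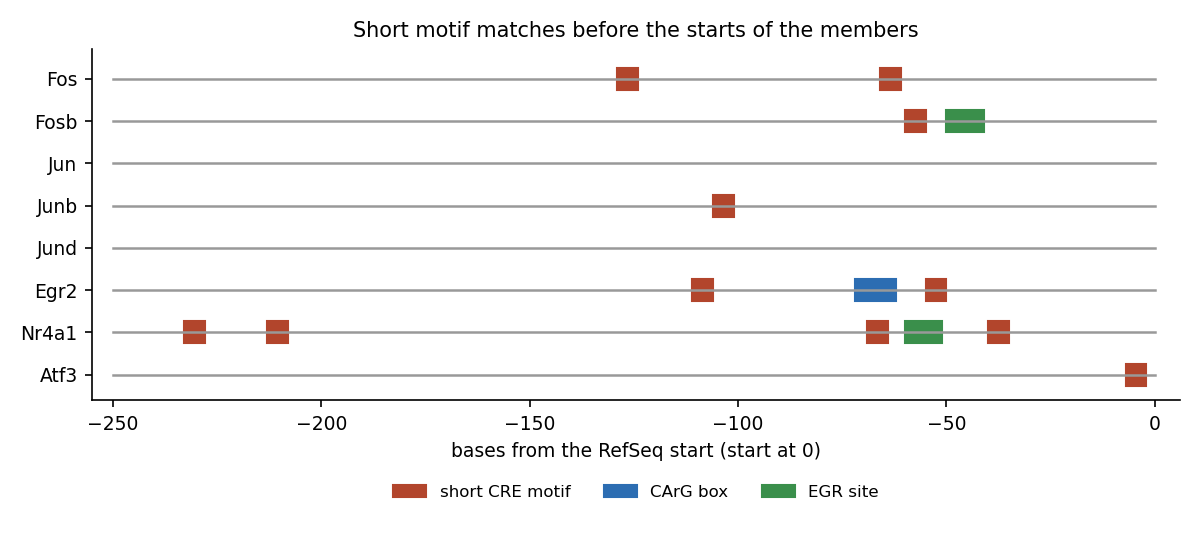
Matches to the short CRE motif, the CArG box and the EGR motif in the 250 bases before the RefSeq start of 8 genes, with the distance from the start in bases on the horizontal axis. Fos has 2 short CRE motifs and Nr4a1 has 4, while the lines of Jun and Jund carry no mark; Egr2 is drawn for 1 of its 5 starts.

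Values below are MAS5 signals, the linear brightness of a probe set, deposited with the same trimmed mean on every array. A signal was above background when it exceeded the highest of 27 bacterial control probe sets on the same array, which lay between 22.2 and 35.1. Fold changes are differences of mean log2(signal + 2.87), with marrow subtracted from fetal liver, so they understate the change of dim genes. Each carries the standard error (SE) that limma fitted. A change was called at an adjusted p under 0.05 (limma, Benjamini-Hochberg over all 27022 probe sets). Signals of different probe sets are not set against each other, because brightness depends on the probes.

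Among the early genes, Fos, Jun, Egr1 and Nr4a1 were lower in the fetal liver arrays than in the marrow arrays, by 4.53-fold to 18.7-fold, values that moved by over 1.5 times for Fos, Jun and Nr4a1 when single arrays were left out, as given with each gene. Of the 12 probe sets tested, 5 were called lower in fetal liver, for 4 of the 10 genes, and 0 were called higher. Over all probe sets tested, 3.28% were called lower and 1.78% higher, 5.06% in either direction. A further 3 probe sets, of Fosb, Jund and Atf3, had an unadjusted p under 0.05 in limma without a call. The 12 changes had a median of -2.14, against -0.05 over all probe sets, and all 12 were negative, as were 53.6% of all probe sets. In 8 of the 12, for 7 genes, every marrow signal lay above every fetal liver signal, which held for 14.4% of all probe sets. The filter uses the mean of all 6 arrays. Nr4a1, Atf3 and Egr2 (1427683_at) were above background on 1, 0 and 0 fetal liver arrays, and their marrow signals carried them past it. A lower fetal liver mean was so built into their place in these counts.

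**Figure D2:**
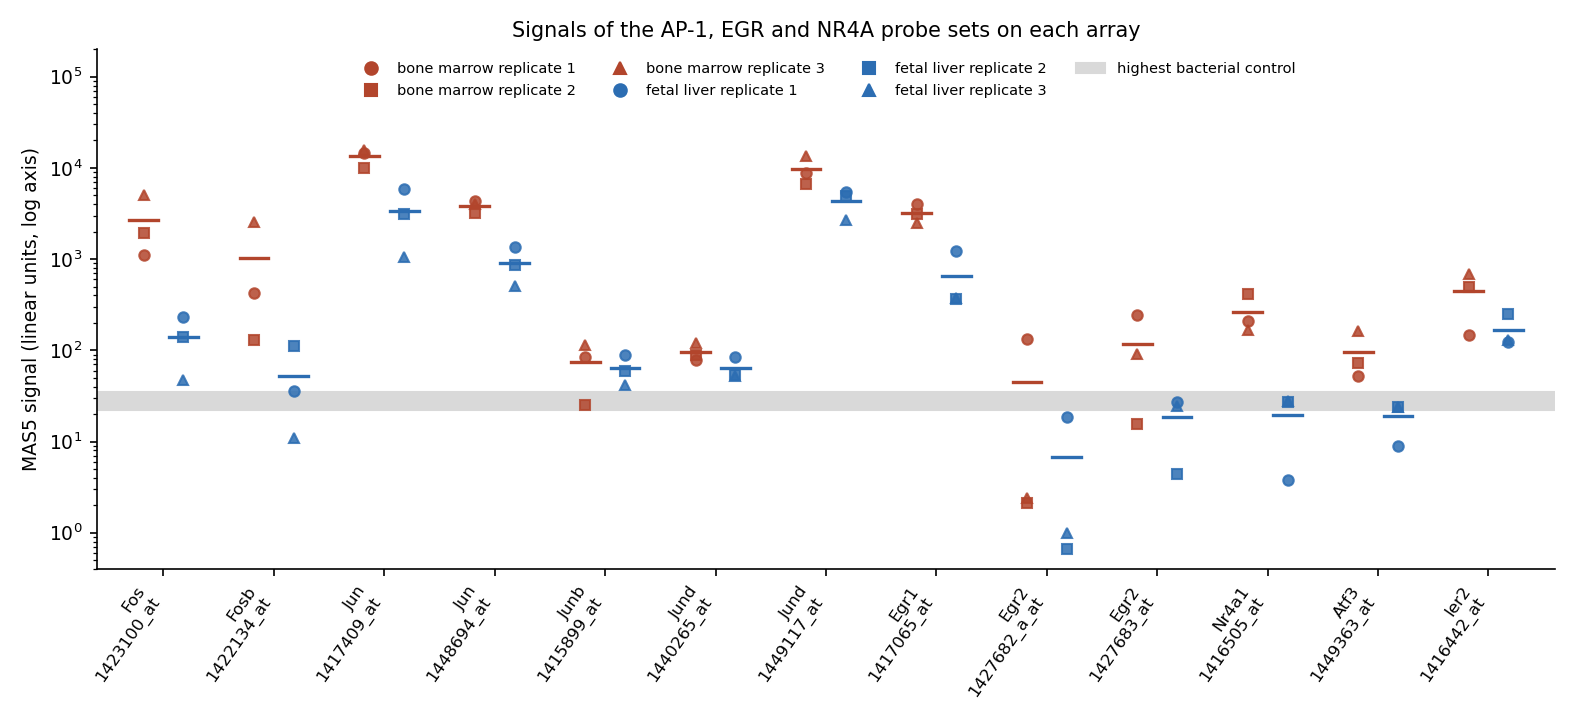
MAS5 signals (log axis) of the 13 probe sets of the 10 early genes on each of the 6 arrays, with symbols for the replicates and bars for the mean of 3 arrays. The grey band spans the highest bacterial control signals of the arrays, 22.2 to 35.1; for Fos, Jun and Egr1 the tissues do not overlap and all points lie above the band.

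Fos, the AP-1 subunit that is inducible in most cells, had a change of -4.22, larger in the fit than that of the other 11 probe sets. Fosb exceeded it when replicate 2 of either tissue was left out, and Nr4a1 when replicate 3 of either tissue was left out. The Fos signals in marrow replicates 1, 2 and 3 were 1115, 1936 and 4985, and in fetal liver replicates 1, 2 and 3 they were 232, 140 and 46.7. The tissues did not overlap, and marrow replicate 3 and fetal liver replicate 3 stood at the ends. The means were 2679 ± 2039 (SD, n = 3) and 139 ± 92.4, and Fos fell by 4.22 on the log2 scale (SE 0.63, limma adjusted p = 0.00363). The change was -3.60 without fetal liver replicate 3 and -3.64 without marrow replicate 3, about 12.1-fold and 12.4-fold in place of 18.7-fold. The call was made in all 18 alternatives (adjusted p = 0.00154 to 0.0387).

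Fosb, a close relative of Fos, had marrow signals of 429, 130 and 2538 and fetal liver signals of 35.4, 111 and 10.8. The lowest marrow array was close to the highest fetal liver array, and marrow replicate 3 was far above the other marrow arrays. Fetal liver replicate 3 was not above background. The change was -3.75 ± 1.02 (SE, limma adjusted p = 0.0636), with a 95% interval of -6.02 to -1.49. It was called without marrow replicate 2 (-4.74, adjusted p = 0.0295) and with a floor at the bacterial controls (-3.35, 0.0478). It was not called without marrow replicate 3 (-2.62, 0.149), fetal liver replicate 3 (-2.99, 0.206) or fetal liver replicate 2 (-4.53, 0.0561), and the alternatives spanned 0.0295 to 0.206.

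Jun, the partner of FOS in classical AP-1, was measured by 2 probe sets. On probe set 1417409_at the marrow signals were 14735, 9862 and 15848 and the fetal liver signals 5867, 3147 and 1047. On probe set 1448694_at they were 4312, 3166 and 4030 in marrow and 1357, 856 and 506 in fetal liver. On both, the tissues did not overlap, and fetal liver replicate 1 was the highest and replicate 3 the lowest of the fetal liver arrays.

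The log2 change of Jun was -2.30 ± 0.49 (SE, limma adjusted p = 0.0229) on 1417409_at and -2.18 ± 0.33 (adjusted p = 0.00419) on 1448694_at. The first was no longer called without marrow replicate 1 (adjusted p = 0.0735), without marrow replicate 3 (0.0730) and when fetal liver replicate 2 was dropped (0.0516). Its alternatives spanned 0.00740 to 0.122, and the change was -1.62, or 3.07-fold in place of 4.91-fold, without fetal liver replicate 3. That on 1448694_at was called in all 17 alternatives that tested it (adjusted p = 0.00180 to 0.0463).

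Jund, the JUN family member known for steady expression in resting cells, gave signals of 8843, 6675 and 13432 in marrow and 5472, 4963 and 2656 in fetal liver on probe set 1449117_at. The tissues did not overlap, although marrow replicate 2 and fetal liver replicate 1 were close. The change was -1.15 ± 0.31 (SE, limma adjusted p = 0.0591), with a 95% interval of -1.83 to -0.47. It crossed the threshold in 6 of 18 alternatives, among them quantile normalization (adjusted p = 0.0428) and the fit that dropped marrow replicate 2 (0.0489), with a span of 0.0410 to 0.209. The other Jund probe set, 1440265_at, ranged from 52.9 to 119 over the 6 arrays with overlapping tissues, and differed by -0.58 ± 0.53 (adjusted p = 0.603).

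Junb, the family member that often opposes JUN, was the 1 gene of the 10 whose fitted direction depended on the processing. Its signals were 84.5, 25.3 and 114 in marrow and 89.1, 59.7 and 41.7 in fetal liver, with marrow replicate 2 the lowest of all and below the controls of its array. The change was -0.06 ± 0.67 (SE, limma adjusted p = 0.976). It turned to 0.19 under median centring and under quantile normalization, and leaving out single arrays gave -0.67 (marrow replicate 2) to 0.36 (marrow replicate 3). Its 95% interval ran from -1.54 to 1.42, so changes of up to those sizes lay within the error.

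Atf3, which dimerises with JUN and is induced by cell stress, was above background on all 3 marrow arrays, at 52.8, 72.1 and 162, and on none of the fetal liver arrays, at 9, 23.9 and 24.1. Set against the highest control signal of each fetal liver array, the marrow mean on the log2 scale was at least 2.69-fold higher. For this bound, each fetal liver array entered with its control level wherever its own signal was dimmer. The fitted change of -2.11 ± 0.67 was not called (limma adjusted p = 0.105, with a span of 0.0737 to 0.229 among alternatives).

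Egr1, the zinc finger factor that serum response factor and its ETS partners induce, had marrow signals of 4006, 3103 and 2518. The fetal liver signals were 1218, 365 and 374, so that fetal liver replicate 1 lay between the other fetal liver arrays and marrow, without overlap. The means were 3209 ± 750 (SD, n = 3) and 652 ± 490. Egr1 fell by 2.51 on the log2 scale (SE 0.43, limma adjusted p = 0.00789). The call was made in 17 of 18 alternatives and missed without the variance trend (adjusted p = 0.0625, the highest of a span that began at 9.24e-04).

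Egr2, a relative of Egr1, was near background. On probe set 1427683_at the marrow signals were 244, 15.5 and 91.2, and the fetal liver signals of 27, 4.4 and 24.3 were all below the controls. By the same bound the marrow mean on the log2 scale was at least 2.30-fold higher, which leaves out the spread between arrays. The fitted change of -2.06 ± 0.97 was not called (limma adjusted p = 0.271), with a 95% interval of -4.20 to 0.08. Marrow replicate 2 lay among the fetal liver arrays and was below the controls of its array. Probe set 1427682_a_at was the 1 probe set of the 13 below the filter, and it was above background on marrow replicate 1 alone, at 132.

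Nr4a1, an orphan nuclear receptor that immune and blood cells induce within minutes of stimulation, had marrow signals of 209, 417 and 168. The fetal liver signals were 3.76, 27.2 and 27.5, and of these only replicate 2 was above its array's controls. The tissues did not overlap. Nr4a1 fell by 3.77 on the log2 scale (SE 0.72, limma adjusted p = 0.0141), a size that depends on signals at background. With signals under the controls raised to them it fell by 2.91 (7.53-fold in place of 13.6-fold, adjusted p = 0.00534), with an offset of 32 by 2.48, and without fetal liver replicate 1 the change was -3.04. Without marrow replicate 2 the change was -3.39 and no longer called (adjusted p = 0.0538), and it was called in the other 16 of 17 alternatives (0.00534 to 0.0538 over all).

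Ier2, which encodes a short-lived nuclear protein, had signals of 147, 499 and 682 in marrow, against 123, 250 and 131 in fetal liver. Marrow replicate 1 lay among the fetal liver arrays. The change was -1.19 ± 0.58 (SE, limma adjusted p = 0.290), with a 95% interval of -2.48 to 0.10, or -1.85 without marrow replicate 1, and it was called in 0 of 18 alternatives (adjusted p = 0.0640 to 0.550).

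**Figure D3:**
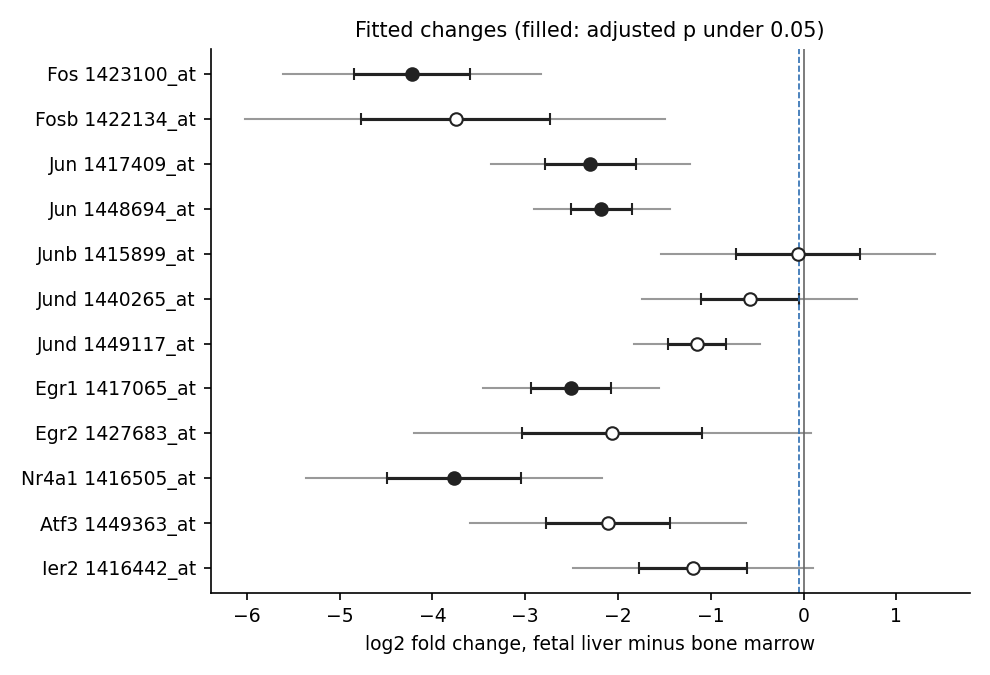
Log2 fold change, fetal liver minus bone marrow, of the 12 probe sets in the fit, with the SE (black) and the 95% interval (grey); the dashed line is the median of all probe sets, -0.05. Filled points mark the 5 called changes, and Junb lies at -0.06 while Fos lies at -4.22.

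The early genes did not share 1 pattern across the arrays of a tissue. In marrow, replicate 3 gave the highest of the 3 signals in 8 of the 13 probe sets, those of Fos, Fosb, Junb, Atf3 and Ier2, both of Jund and 1 of Jun. Marrow replicate 1 was highest for Egr1, for both Egr2 probe sets and for the other Jun probe set, and replicate 2 for Nr4a1. In fetal liver, replicate 1 was highest in 9 of the 13 and replicate 3 lowest in 7. Nr4a1, Atf3 and Ier2 differed, with their lowest fetal liver signals in replicate 1.

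Over the 6 arrays, the 45 pairs among the 10 genes (each by its brightest probe set) had a median Pearson correlation of 0.62, from -0.27 to 0.96. The arrays share the difference between tissues, so the deviations from the tissue means were also compared, with a median of 0.26 and a range of -0.84 to 0.88. On these deviations Jund followed Fosb (0.88), Fos (0.86) and Jun (0.86). Egr1 ran against Atf3 (-0.84) and Nr4a1 (-0.81). With 3 arrays a tissue these are descriptions of the 6 arrays.

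**Figure D4:**
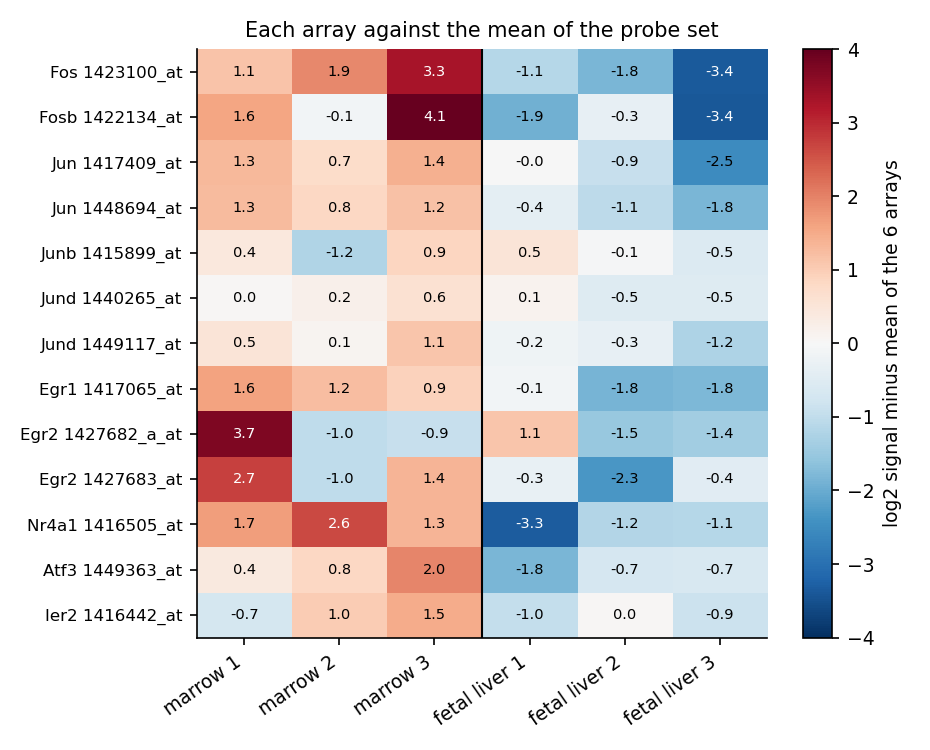
Log2 signal of each of the 13 probe sets on each array, as the difference from the mean of the 6 arrays (colour and printed value), with marrow on the left of the black line and fetal liver on the right. Marrow replicate 3 and fetal liver replicate 3 hold the ends for Fos, and fetal liver replicate 1 is the lowest array for Nr4a1.

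The genes whose profile over the 6 arrays was most like the mean standardised profile of the 10 genes were L1cam, Selplg, Zfp318, Ms4a3 and Nudt18, with Pearson correlations of 0.988 to 0.994. They were picked for this likeness, which includes the difference between tissues, so no test of that difference is given for them. Selplg, the P-selectin ligand of leukocytes, had 443, 260 and 764 in marrow and 144, 137 and 96.2 in fetal liver. Ms4a3, a gene of granulocyte and monocyte progenitors, had 844, 545 and 2952 in marrow and 82, 122 and 58.6 in fetal liver.

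Of the wider bZIP family that pairs with FOS and JUN, 2 of 17 measured genes fell and 0 rose (11.8% called). Over all 11625 genes, each by its brightest probe set, 4.09% fell and 2.26% rose. Jdp2, a repressive dimer partner of JUN, had marrow signals of 201, 105 and 250 and fetal liver signals of 1.12, 5.71 and 33.4, of which only replicate 3 was above background. It fell by 4.05 (SE 0.83, limma adjusted p = 0.0194), or by 2.37 (adjusted p = 0.0151) with signals under the controls raised to them. Fosl2, which encodes FRA2, had 395, 510 and 538 in marrow and 82.6, 161 and 129 in fetal liver, and fell by 1.97 (SE 0.41, adjusted p = 0.0222).

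Neither of these calls held with every array left out in turn. The count of 2 dropped to 0 on leaving out marrow replicate 3 or fetal liver replicate 1, and to 1 on leaving out any other array. Part of this came from the filter, because Jdp2 was not tested without marrow replicate 1 or marrow replicate 3. It was called in 12 of the 15 alternatives that tested it. For Fosl2 the adjusted p in limma was 0.0577 without marrow replicate 2, 0.0671 without marrow replicate 3, 0.0607 without fetal liver replicate 1 and 0.0768 without fetal liver replicate 3 (span 0.00888 to 0.0768). For Jdp2 it was 0.0555 without fetal liver replicate 1 (-3.33) and 0.0679 without fetal liver replicate 2 (span 0.0101 to 0.0679). The median change of the 17 genes was -0.30, against 0.01 over all genes.

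Of the other EGR and NR4A genes and the EGR corepressors, 3 of 6 were measured and 0 were called in limma. Nr4a2, a relative of Nr4a1, had 870, 392 and 489 in marrow and 411, 166 and 331 in fetal liver on its brightest probe set, differing by -0.95 ± 0.45 (SE, adjusted p = 0.267). Its 6 probe sets gave changes from -1.43 to 0.35, and none was called. Egr3, a relative of Egr1, differed by 0.60 ± 0.89 (adjusted p = 0.774), and the corepressor Nab1 by -0.19 ± 0.17 (adjusted p = 0.598).

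Beyond these families, other immediate-early genes were lower in fetal liver in 15 of 46 measured cases and higher in 1 (34.8% called). Of all genes 6.36% were called. The median change was -1.13, or -0.88 under median centring, and 40 of the 46 had a negative change, as did 49.5% of all genes. In 27 of the 46 every marrow signal lay above every fetal liver signal, against 14.2% of all genes. The 15 became 7 without marrow replicate 3 and 9 without fetal liver replicate 3. The count of risen genes was 2 with marrow replicate 2 left out, and 0 with marrow replicate 1, fetal liver replicate 2 or fetal liver replicate 3 left out.

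Dusp6, the phosphatase that inactivates ERK, had 785, 1171 and 684 in marrow and 29.9, 19.3 and 57 in fetal liver, where only replicate 3 was above background. It fell by 4.61 on the log2 scale (SE 0.50, limma adjusted p = 6.43e-04), or by 4.40 (adjusted p = 2.88e-04) with signals under the controls raised to them. Rgs1 and Rgs2, which damp G protein signals, were lower too. Rgs1 fell by 3.84 (adjusted p = 4.67e-05) and Rgs2 fell by 3.43 (adjusted p = 1.80e-04). Cd69, an activation antigen of blood cells, fell by 3.07 (adjusted p = 0.0364; -2.38 without fetal liver replicate 3, -3.76 without marrow replicate 2), a call lost on leaving out any array but marrow replicate 2 (0.0501 to 0.117 in those 5 fits, 0.0172 to 0.117 among all alternatives).

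Dusp1, a phosphatase that feeds back on p38 and JNK, had 1623, 1931 and 4844 in marrow and 630, 555 and 187 in fetal liver. Like Fos, it was highest on marrow replicate 3 and lowest on fetal liver replicate 3. It fell by 2.61 (SE 0.51, limma adjusted p = 0.0153), and by 2.13 with marrow replicate 3 left out (0.0504, in a span of 0.00786 to 0.0850). Zfp36, which encodes the tristetraprolin that destabilises early messages, fell by 1.65 (adjusted p = 0.0271). The threshold was missed when marrow replicate 1 (0.0877), marrow replicate 3 (0.0848), fetal liver replicate 2 (0.0938) or fetal liver replicate 3 (0.111) was left out, in a span of 0.00885 to 0.138.

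The 1 gene of that list that rose was Slc2a1, the glucose transporter GLUT1, named here after its values were seen. It had 1989, 2148 and 3534 in marrow and 5402, 7101 and 5491 in fetal liver, which is a rise of 1.27 ± 0.24 (SE, limma adjusted p = 0.0146). The threshold was missed with marrow replicate 1 (0.0503), fetal liver replicate 2 (0.0793) or fetal liver replicate 3 (0.0520) left out, in a span of 5.98e-04 to 0.103.

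The kinases and transcription factors that act upstream were called in 1 of 34 measured cases (2.94%). That gene, the p38 target kinase Mapkapk3, fell by 0.70 (SE 0.16, limma adjusted p = 0.0338). Its change was -0.45 and not called under median centring (adjusted p = 0.120). It was also not called without marrow replicate 1 (adjusted p = 0.0710), marrow replicate 3 (0.0965), fetal liver replicate 2 (0.151) and fetal liver replicate 3 (0.127), in a span of 0.0117 to 0.204. The median change of the 34 was -0.09, or 0.17 under median centring. Srf, which encodes serum response factor, had 2701, 1861 and 4079 in marrow and 4389, 3393 and 3329 in fetal liver, which differed by 0.42 ± 0.28 (adjusted p = 0.447).

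**Figure D5:**
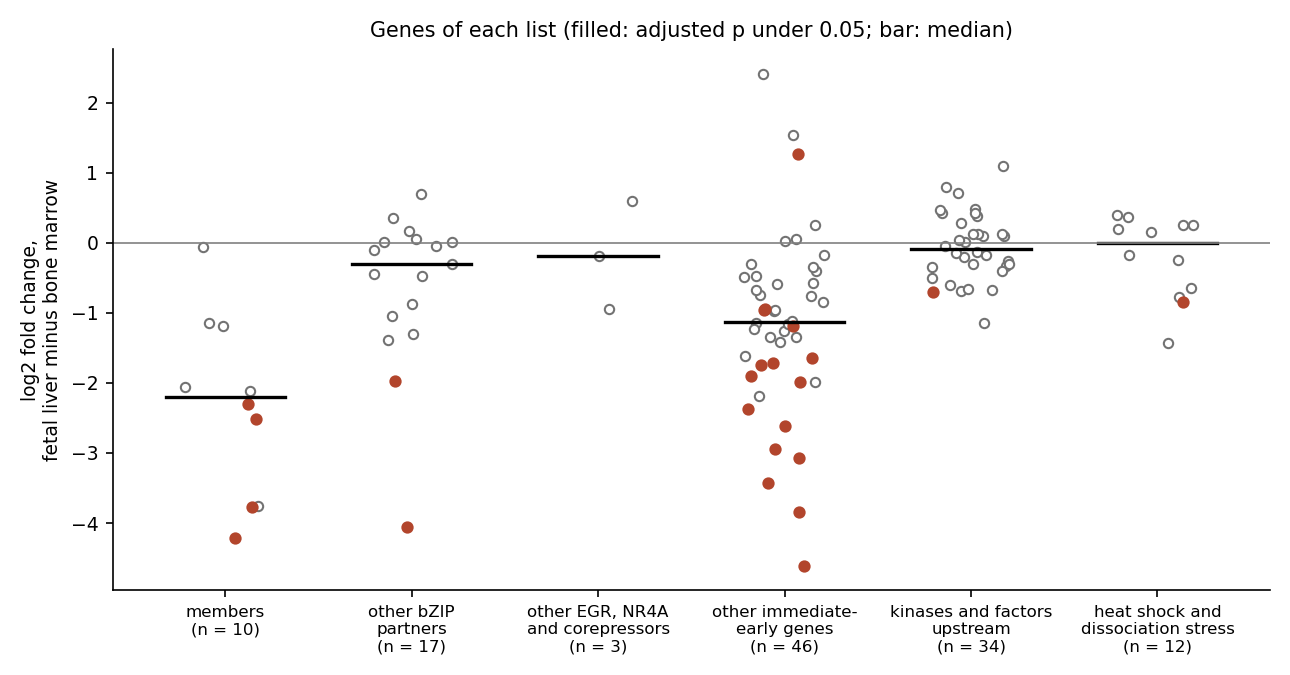
Log2 fold changes, fetal liver minus bone marrow, of the measured genes of the early genes and of 5 further lists, each gene by its brightest probe set in the fit, with bars at the medians. The medians lie at -2.20 for the 10 early genes and -1.13 for the other immediate-early genes, and between -0.30 and -0.01 for the remaining lists; filled points are called changes.

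Heat shock genes, which cell isolation can induce together with the early genes, were called in 1 of 12 measured cases, as lower. Under median centring 0 were called lower and 2 higher, the cochaperone Dnaja1 (0.65, limma adjusted p = 0.0454) and the chaperonin subunit Hspe1 (0.61, adjusted p = 0.0461), named after their values were seen. Dnajb4, a cochaperone, fell by 0.84 (SE 0.19, limma adjusted p = 0.0346), a call lost without each of the 6 arrays (adjusted p = 0.0654 to 0.0923) and under median centring (0.108; 0.0199 to 0.549 over all alternatives). Hspa1a, an inducible HSP70 whose probes may also read its near-identical copy Hspa1b, had 1913, 86.7 and 1158 in marrow and 1262, 358 and 84 in fetal liver. It was lowest on marrow replicate 2 and fetal liver replicate 3, and the tissues overlapped (-0.78 ± 1.12, adjusted p = 0.766). The summed signal of 13 heat shock genes was 98160 to 124404 in marrow and 105447 to 137204 in fetal liver (two-sided exact permutation p = 0.8). Bright genes such as Hspa8 (means of 26111 in marrow and 23337 in fetal liver) make up much of this sum. Hspa1a (1052 and 568) has a small part in it.

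Markers of other blood cells also differed between the arrays. For the labelled lineage, the summed signals of 18 megakaryocyte markers overlapped, with means of 58954 ± 2924 (SD over 3 arrays) in marrow and 57943 ± 5652 in fetal liver (two-sided exact permutation p = 0.9). Single markers of that list did differ, and in 9 of its 17 measured genes the tissues did not overlap, 4 being higher in marrow and 5 in fetal liver. Of all probe sets tested, counted by probe set and not by gene, 14.4% were higher in marrow without overlap and 11.1% higher in fetal liver. By gene the marrow share was 14.2%. Pf4, the platelet factor, was at 20094 to 22903 in marrow and 15264 to 19031 in fetal liver and was not called (limma adjusted p = 0.232). The 3 called genes, named after their values were seen, were the platelet tubulin Tubb1 (5.11, adjusted p = 0.00220), the thrombin receptor family gene F2rl2 (1.04, adjusted p = 0.0247) and the adhesion receptor gene Selp (-3.66, adjusted p = 0.00342). Leaving out single arrays moved Tubb1 to 4.17 (marrow replicate 2) and 5.92 (marrow replicate 1). It ended the call of F2rl2 when marrow replicate 1 (0.0683), marrow replicate 3 (0.0538), fetal liver replicate 2 (0.104) or fetal liver replicate 3 (0.140) was dropped, in a span of 0.00947 to 0.140. Itgb3, an integrin subunit gene, differed by 0.34 (limma adjusted p = 0.259).

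Summed granulocyte and monocyte markers (18 genes) were 46406 to 73373 in marrow, the highest in replicate 3, and 5007 to 7145 in fetal liver. Of these 18, 17 were above background on some marrow array and 11 on some fetal liver array. With 3 arrays against 3, an exact permutation test cannot go below p = 0.1, which this list reached.

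The other lists that were higher in marrow on every array, also at p = 0.1 by the exact permutation test, were macrophage markers (12 genes, summed signal 2108 to 3951 against 415 to 572), mast cell, basophil and eosinophil markers (11 genes, 8574 to 12699 against 2390 to 6338) and lymphoid markers (13 genes, 1849 to 2485 against 599 to 768). Single genes make up much of the last sums. Nkg7, of cytotoxic lymphocytes, fell by 3.28 (limma adjusted p = 6.72e-04), while 4 of the 5 measured lymphoid genes were not called and the B cell gene Cd79b had means of 274 in marrow and 311 in fetal liver. Gata2, which megakaryocyte progenitors also express, had 8578 in marrow and 4663 in fetal liver and was not called (adjusted p = 0.140), while the mast cell gene Ms4a2 fell by 2.87 (adjusted p = 0.00474). Erythroid markers (13 genes) were 21246 to 26683 in marrow and 29745 to 45471 in fetal liver, and hepatocyte markers (8 genes) 266 to 647 and 798 to 3897. Endothelial and stromal markers (14 genes) overlapped (exact permutation p = 0.2). Adjusted over the 12 array measures compared, no p was under 0.15. In sorted bulk RNA, fewer cells of a type and less RNA per cell cannot be told apart, and the part of these markers in the early gene differences was not tested.

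In the granulocyte and macrophage lists, Mpo, the myeloperoxidase of granulocyte precursors, had 19048, 8804 and 24686 in marrow and 2550, 5004 and 3121 in fetal liver, and fell by 2.23 (limma adjusted p = 0.00546). Lyz2, lysozyme, fell by 2.42 (adjusted p = 2.17e-04) and Csf1r, the macrophage growth factor receptor, by 3.08 (adjusted p = 0.00153), while Cd68, a lysosomal protein gene of macrophages, differed by -1.07 (adjusted p = 0.403). Of 12 measured erythroid markers 6 rose and 0 fell, against 2.26% and 4.09% of all genes. Tfrc, the transferrin receptor, rose by 1.01 (limma adjusted p = 0.0222). Its call was lost without marrow replicate 2 (0.0617), fetal liver replicate 1 (0.0608) or fetal liver replicate 2 (0.127), in a span of 0.00612 to 0.133. Car2, carbonic anhydrase, differed by -0.12 (adjusted p = 0.693). Not called either were the hepatocyte genes Afp (1.81, adjusted p = 0.394) and Apoa1 (2.51, 0.0634) and the endothelial genes Tek (0.06, 0.932) and Pecam1 (-0.39, 0.698). The hepatocyte list held 1 called gene of 6 measured, Dlk1 (3.82, limma adjusted p = 0.00676). The endothelial and stromal list held 1 of 7, Kdr (2.20, 0.0205). Both were named after their values were seen. The call of Kdr was lost without replicate 2 or 3 of either tissue (0.0512 to 0.117), and Dlk1 was above background on 0 marrow arrays. For Gapdh, the ratio of 5′ to 3′ probe set signals, a measure of RNA integrity, was 0.099, 0.177 and 0.303 in marrow and 0.109, 0.449 and 0.432 in fetal liver (two-sided exact permutation p = 0.3). The same ratio for Actb was 1.08, 1.13 and 1.06 in marrow and 0.892, 1.02 and 0.971 in fetal liver, without overlap (exact permutation p = 0.1), and its part in the early gene differences was not tested. The median array signal was 74.1 to 80.2 in marrow and 62.9 to 65.5 in fetal liver. Centring the arrays on their medians moved all changes by 0.25 (log2) towards fetal liver and left 5 probe sets of the early genes called.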

How the data were processed

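Biotin-labelled RNA of 6 samples was hybridised to Affymetrix arrays, 1 array a sample. The authors deposited MAS5 signal intensity values on a linear scale, per the submitters' processing notes; the labels name neither the version nor the scaling target. On every array the mean after trimming 2% at each end was 500.0. Of 45101 probe sets 64 were array controls and were left out. Gene symbols came from the platform annotation, and 34945 probe sets had 1 symbol. Signals were used as log2(signal + 2.87), the offset being the 10th percentile of all signals. Probe sets with a mean above the 40th percentile were kept. Tissues were compared in limma 3.58.1 under R 4.3.3 (eBayes with an intensity trend), with the Benjamini-Hochberg adjustment over probe sets and a threshold of 0.05, and the fit was checked on simulated data. List genes stand by their kept probe set with the highest mean. Array measures were compared by two-sided exact permutation tests. Figures were drawn with matplotlib 3.10.9.

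The members and lists were chosen with earlier results of these data known. Every member probe set is named. From each other pathway list the rule names up to 4 called genes with the largest change, or the 2 with the smallest p, and in any case Fosl2, Egr3, Nr4a2, Zfp36, Dusp1, Srf and Hspa1a. It adds the brightest markers of the lists and the 5 genes most like the members. The 18 alternatives were the offset (1 or 32), quantile normalization, median centring, no filter or one at the 60th percentile, 2 variance models, 2 gene-level summaries, a floor at the bacterial controls, the replicate block and each array left out. Same-numbered arrays of the 2 tissues correlated at 0.123, -0.018 and 0.096 in their deviations, so the fit has no block.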

Additional observations from a re-analysis of the deposited data

How the results depend on the processing

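The count of called early gene probe sets (5 lower in fetal liver) was 3 without the variance trend and 4 to 6 with an array left out. It was 7 with a floor at the bacterial controls, and 6 with an offset of 32 or under quantile normalization. In each of these fits 0 were higher. Of the values of the 12 probe sets under alternatives, 187 kept direction and side of the threshold, 6 lost the call, 8 gained it and 5 turned direction. All 5 were Junb: 0.19 under median centring and quantile normalization, and 0.15 to 0.36 without marrow replicate 1, marrow replicate 3 and fetal liver replicate 3 (0.15, 0.36 and 0.20), in a range of -0.67 to 0.36 with an array left out. Over all probe sets, 482 higher in fetal liver became 1291 under median centring, 195 without the variance trend and 140 to 455 with an array left out. The 886 lower became 526 without the variance trend, 553 and 589 with 1 value a gene (fewer features tested), and 477 to 689 with an array left out. Median centring so gave 701 lower, against 886. The 5 further lists together (19 lower, 1 higher) gave 7 lower without the variance trend, 4 higher under median centring, and 7 to 16 and 0 to 2 with an array left out. Other immediate-early genes gave 6 lower without the variance trend, against 15. With the replicate block, 5 early gene probe sets were called; over all, 717 were higher and 1077 lower, though the numbers need not pair the samples. The cause of these shifts was not tested. Changes near background are limited by the control signals.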
